A study of Mus musculus with 47 samples.

Results

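The genes described here encode 10 proteins that carry amino acid signals to mTORC1 (mechanistic target of rapamycin complex 1), the kinase complex that promotes growth and restrains autophagy when amino acids are plentiful. They are the Sestrins Sesn1, Sesn2 and Sesn3, the arginine sensor Castor1, the GATOR1 subunits Depdc5, Nprl2 and Nprl3, the Rag GTPases Rragc and Rragd, and Flcn. All 10 were found by symbol and Ensembl identifier in both deposited tables of counts, each of which lists 55416 identifiers. They were picked by their place in the pathway, at a time when earlier results of these data were known.

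Leucine binds Sesn2 and arginine binds Castor1, and without its amino acid each sensor holds back GATOR2, the complex that opposes GATOR1. GATOR1 is a GTPase-activating protein (GAP) for RagA and RagB, and by acting on them it turns mTORC1 off. RagC or RagD (Rragc, Rragd) completes the Rag heterodimer that brings mTORC1 to the lysosome, and folliculin (Flcn) is the GAP for these partners. Sesn2 is also known as a target of ATF4, a transcription factor of the amino acid deprivation response. Loss of GATOR1 genes in neurons is a known cause of epilepsy.

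The libraries hold brain RNA of 3xTg mice of both sexes, homozygous mice that carry human transgenes of familial APP, tau and presenilin 1 (APPSwe, tauP301L and PS1M146V) and serve as a model of Alzheimer's disease. Every group described here carries these alleles, of which the APP and tau transgenes are driven by a neuronal promoter, and non-transgenic mice are not analysed here. The mice ate an amino acid-defined Control diet or such a diet low in isoleucine (IleR), leucine (LeuR) or valine (ValR) for 9 months, from 6 months of age. The comparisons ask whether the mRNAs of the amino acid sensors differ after a long shortage of 1 branched-chain amino acid. The sample labels give the tissue as brain and the study's methods name the left hemisphere, while the extraction text of the labels names liver.

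There were 4 Control, 3 IleR, 3 LeuR and 4 ValR libraries from males. From females there were 6 Control, 5 IleR, 6 LeuR and 6 ValR libraries. Each is named here by its diet and the number in its label. Of 24 labelled male libraries, 10 are not analysed here. The study's methods say that outlying libraries were dropped on the basis of a principal component analysis, and whether the 10 are those libraries is not given in the sources used here, so the male groups may have been selected on their expression profiles. Total counts ranged from 12682687 to 25722333 in males and from 10672599 to 21370973 in females. Levels are given in CPM, the counts of a gene scaled to a fixed library total after TMM normalization. Changes are log2 fold changes from edgeR's quasi-likelihood test, with p-values adjusted by Benjamini-Hochberg over all genes tested in that sex and a threshold of 0.05. The labels number libraries and not animals, so p-values measure the spread between libraries. All 10 genes passed the filter on low counts in both sexes, with counts per library from 14 for Castor1 to 5284 for Sesn3.

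Marker genes of brain regions differed between the male groups, and these values bear on each comparison with Control in males. Every library was given a hindbrain score from markers that passed the filter on low counts in its sex. It averages the mean log2 CPM of 9 cerebellar markers and that of 8 brainstem or spinal cord markers, less the mean of 10 forebrain markers. In females only 4 of the 8 brainstem or spinal cord markers passed that filter and entered the score, so the scores of the sexes are not the same measure. Scores lay between -9.06 and -5.45 in the male Control libraries, between 0.20 and 1.66 for IleR, from -4.90 upward with a median of -0.15 for LeuR, and between 1.57 and 2.53 for ValR, so no male library on a restricted diet overlapped with Control. The cerebellar markers summed to 20.1 to 39.6 CPM in male Control libraries, against 927.5 to 2584.4 for IleR, 53.3 to 886.2 for LeuR and 976.9 to 3497.9 for ValR, and 8, 7 and 8 of the 9 rose. The brainstem and spinal cord markers summed to 0.7 to 9.4 CPM in male Control libraries, with Hoxa2 and Hoxd3 at 0 in all 4 of them, against 2.8 to 592.8 CPM over the restricted diets, and 6, 7 and 7 of the 8 rose. The forebrain markers summed to 1893.0 to 7299.9 CPM in male Control libraries and to 381.7 to 1350.7 CPM over the restricted diets, and 8, 5 and 8 of the 10 fell for IleR, LeuR and ValR.

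In males, diet and the share of hindbrain tissue therefore cannot be told apart by comparison with Control. Of the cell type markers, 3, 2 and 3 of 6 astrocyte genes rose and 2, 0 and 4 of 6 microglia genes fell on IleR, LeuR and ValR. Of 7 pan-neuronal genes 1, 1 and 1 rose and 2, 1 and 2 fell. Summed, these 7 were at 4948.9 to 6569.5 CPM in male Control libraries. They were lower on the restricted diets, at 4088.3 to 4443.3 CPM for IleR and 4361.7 to 4625.3 CPM for LeuR. For ValR they summed to 4289.8 to 4997.4 CPM, which overlapped with Control. Among the oligodendrocyte (7 genes), endothelium (5), choroid plexus (6) and blood (5) markers, 0 passed on any diet. The oligodendrocyte markers still summed to 4661.4 to 9762.1 CPM in male Control libraries, against 10392.0 to 15174.3 CPM for IleR. They summed to 6558.4 to 18275.0 CPM for LeuR and 9656.6 to 16627.5 CPM for ValR. The part of the cell types in the results below was not tested. In females the scores ran from -9.09 to 2.44, the groups overlapped, and 0 of the marker genes that could be tested passed. In bulk tissue, fewer cells of a type and less RNA per cell cannot be told apart.

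The genes differed widely in level per length. In females, Rragd had the highest mean level at 26.8 (SD 7.36) CPM per kb of annotated exons over 23 libraries, followed by Rragc at 21.2 (SD 1.48), Sesn1 at 15.6 (SD 3.46), Flcn at 13.5 (SD 1.92), Nprl2 at 12.4 (SD 0.860) and Sesn3 at 12.2 (SD 2.09). Each of these neighbours overlapped with the next in its range over libraries. Below a gap came Depdc5 at 5.17 (SD 0.368) CPM per kb, Sesn2 at 5.13 (SD 1.27) and Nprl3 at 3.53 (SD 0.328), and below another gap Castor1 at 1.36 (SD 0.349). In males the order began with Rragc at 21.8 (SD 1.09) CPM per kb and Rragd at 20.0 (SD 6.17), whose ranges over 14 libraries overlapped, and ended with Castor1 at 2.39 (SD 0.794). The only gap between neighbours in males lay between Depdc5 at 5.42 (SD 0.352) CPM per kb and Nprl3 at 3.78 (SD 0.431). Lengths are those of all annotated exons of a gene, so a gene with long alternative exons reads lower per length.

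**Figure D1:**
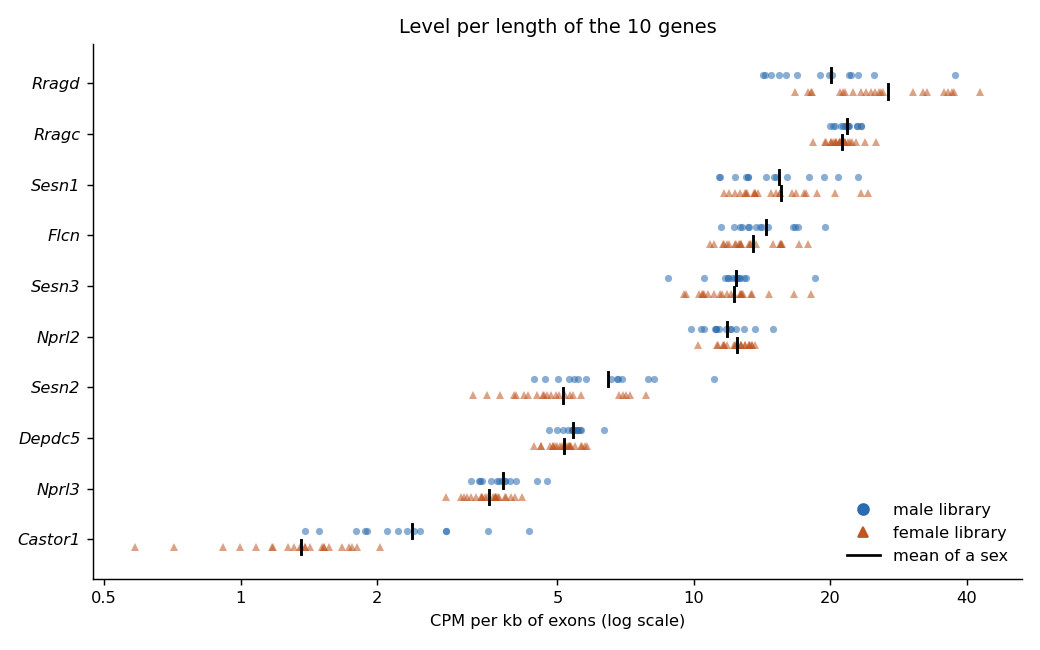
Level of the 10 genes in CPM per kb of annotated exons (log axis), 1 point per library (circles, 14 male; triangles, 23 female), with a black line at the mean of each sex. The Rag GTPases Rragd and Rragc stand highest and Castor1, the arginine sensor, lowest in both sexes.

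The genes also differed in how far they varied over libraries. Rragc was the most even of the 10 in males and next to Nprl2 in females, with a coefficient of variation of 5.03% over the 14 male and 6.98% over the 23 female libraries. Its counterpart Rragd varied by 30.8% in males and 27.5% in females, and the highest female library held 2.56 times the level of the lowest. The GATOR1 subunit Depdc5 stayed within 1.32-fold in males and 1.31-fold in females from lowest to highest library. The leucine sensor Sesn2 varied by 27.0% in males and 24.7% in females.

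**Figure D2:**
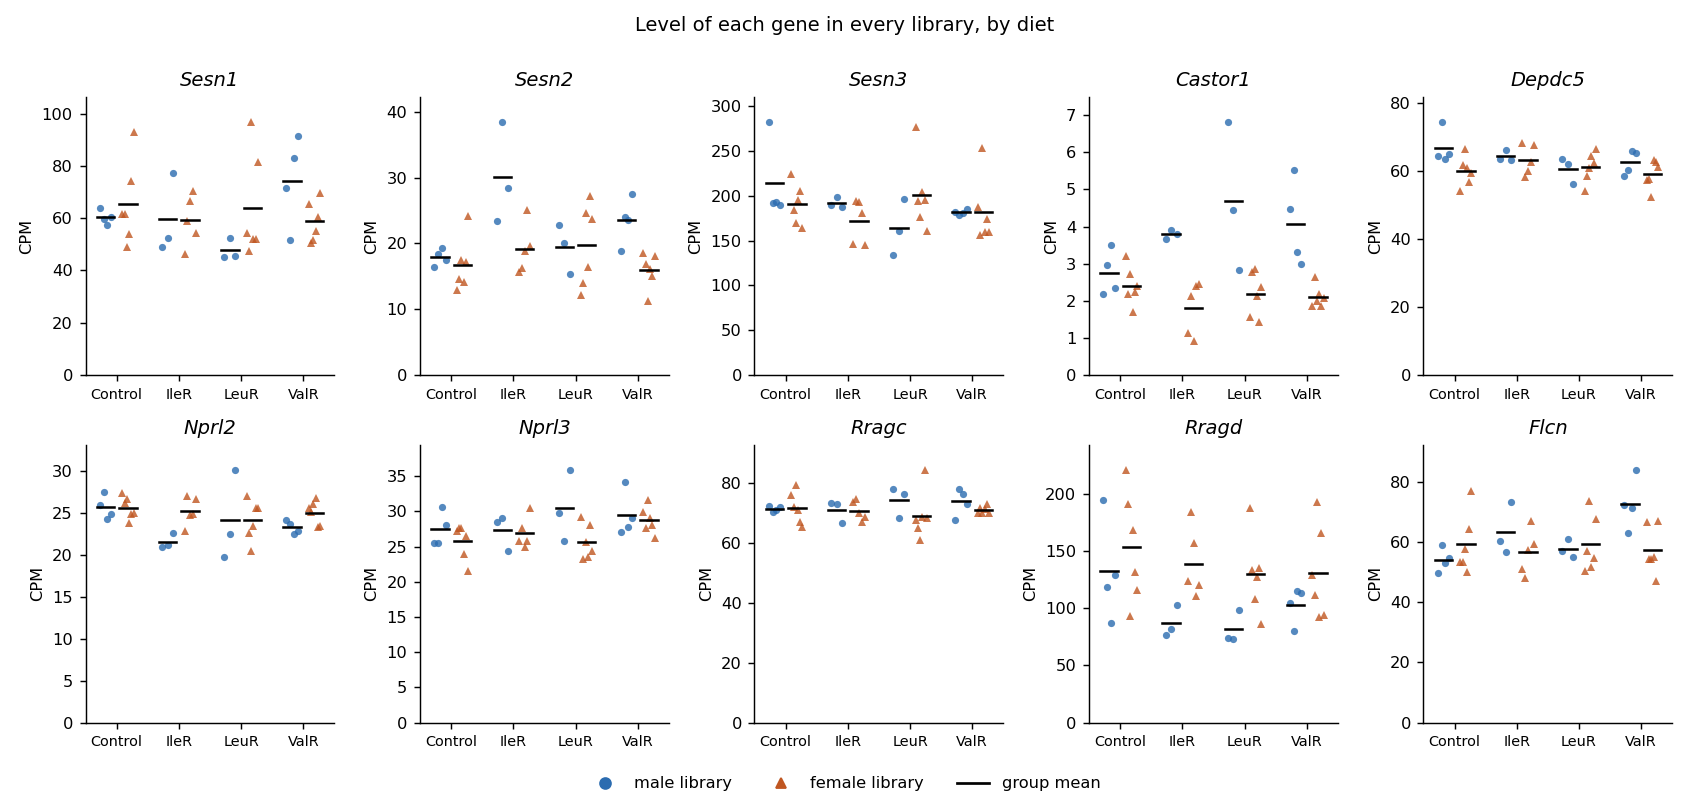
Level in CPM of each gene (vertical axes start at 0) in every library by diet, with circles for males, triangles for females and black lines for group means. In males, Sesn2 in the 3 IleR libraries and Flcn in the 4 ValR libraries lie above all 4 Control libraries, while in females every diet overlaps with Control for all 10 genes.

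Of the 10 genes, 1 changed in male mice on the IleR diet, 0 on LeuR and 1 on ValR, against 15.3%, 10.1% and 23.5% of the 22197 genes tested in the same comparisons (edgeR). Sesn2 rose on IleR, where 6.63% of all genes rose and 8.68% fell. Flcn rose on ValR, where 11.1% of all genes rose and 12.4% fell. On LeuR the shares of all genes were 3.81% and 6.33%. DESeq2 called 2 of the 10 on IleR (Sesn2 and Rragd), 1 on LeuR (Rragd) and 1 on ValR (Flcn), against 19.7%, 16.3% and 26.8% of all genes. With so few genes, these counts are near the shares of all genes. Unadjusted, 2 of the 10 had a p under 0.05 for IleR, 3 for LeuR and 2 for ValR, beside 29.6%, 27% and 35.2% of all genes. In a joint edgeR test of any difference among the 4 diets, Sesn2 (adjusted p = 0.0285) and Flcn (adjusted p = 0.0388) passed, beside 19.3% of all genes, while DESeq2 called 4 of the 10 in that test, beside 28.7%. In the edgeR test 0 of the 10 passed without Control 1, 3 or 5, 0 when the score described above was a covariate, and 1 without ValR 7, 10 or 12, IleR 13 or 14, or LeuR 19. The median log2 fold change of the 10 on IleR was -0.01, on LeuR -0.02 and on ValR 0.08, against 0.04, 0.05 and 0.03 over all genes tested.

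Sesn2 (ENSMUSG00000028893, chr4:132492032-132510501, minus strand, GRCm38), the leucine sensor, was the only Sestrin past the threshold against Control in the edgeR test of all male libraries. Sesn2 passed on the diet low in isoleucine. Its level was 16.3, 18.4, 19.3 and 17.4 CPM in the male Control libraries 1, 3, 4 and 5, and 23.5, 38.4 and 28.4 CPM in IleR 13, 14 and 17. Every IleR library lay above every Control library, with IleR 14 the highest of all 37 libraries. The log2 fold change was 0.75 (SE 0.18, 95% confidence interval 0.38 to 1.13, adjusted p = 0.0112), or 1.69-fold. In LeuR 19, 20 and 21 the level was 22.8, 20.1 and 15.4 CPM, and the log2 fold change of 0.12 (SE 0.18, adjusted p = 0.707) had a 95% interval of -0.26 to 0.50. In ValR 7, 9, 10 and 12 it was 18.9, 24.1, 23.6 and 27.5 CPM, with a log2 fold change of 0.40 (SE 0.16, adjusted p = 0.102). The LeuR diet, low in the amino acid that Sesn2 binds, had the lowest mean of the restricted diets, and all 3 of its libraries lay below the 3 IleR libraries. The direct comparison of IleR with LeuR gave a log2 fold change of 0.63 (SE 0.19) that did not pass (adjusted p = 0.356). Without IleR 14 the log2 fold change of IleR against Control was 0.54 (SE 0.17, adjusted p = 0.0765), and with the hindbrain score as a covariate it was 0.01 (SE 0.34, adjusted p = 0.996). The values for LeuR and ValR turned sign in that fit, to -0.46 (SE 0.28, adjusted p = 0.738) for LeuR and -0.44 (SE 0.37, adjusted p = 0.767) for ValR, without passing.

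The sequence upstream of Sesn2 is shown because it is the leucine sensor that changed. It comes from the RefSeq promoter table (GRCm38.p6), reads 5′ to 3′ on the strand of the gene, and covers the 205 bases before the first annotated exon, chr4:132510502-132510706, minus strand. Capitals mark the GC box GGGCGG on either strand, a motif known to bind Sp1.
Sesn2: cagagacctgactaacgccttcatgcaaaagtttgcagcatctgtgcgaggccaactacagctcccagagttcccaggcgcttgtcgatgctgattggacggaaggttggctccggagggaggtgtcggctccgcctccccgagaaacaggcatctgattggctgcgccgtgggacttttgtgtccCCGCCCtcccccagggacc
The window around the start of Sesn2 held no match to TGATGCAA, a form of the element that ATF4 binds together with C/EBP factors, on either strand. That motif was in 0.895% of the 32851 RefSeq windows of the same length and in 0 of the 11 windows of the 10 genes. The GC box was in 35.7% of all windows and in those of 7 of the 10 genes (Castor1, Depdc5, Nprl3, Rragc, Sesn1, Sesn2 and Sesn3).

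Sesn1 (ENSMUSG00000038332, chr10:41809935-41908424, plus strand), a Sestrin known as a p53 target, was at 64.0, 59.7, 57.4 and 60.3 CPM in the male Control libraries. It was at 49.2, 52.3 and 77.1 CPM for IleR, 45.3, 52.3 and 45.4 CPM for LeuR, and 71.4, 51.8, 82.9 and 91.6 CPM for ValR. The 3 LeuR libraries lay below Control, ValR 9 lay below and the other ValR libraries above, and IleR 13 and 14 lay below and IleR 17 above. No comparison with Control passed, with log2 fold changes of -0.02 (SE 0.18, adjusted p = 0.959) for IleR, -0.34 (SE 0.18, adjusted p = 0.249) for LeuR and 0.30 (SE 0.17, adjusted p = 0.218) for ValR. The difference of ValR from LeuR was 0.64 (SE 0.18, adjusted p = 0.0638) on the log2 scale, and without IleR 17 it was 0.64 (SE 0.15, adjusted p = 0.0474). Without ValR 9 Sesn1 passed for ValR against Control, with a log2 fold change of 0.44 (SE 0.14, adjusted p = 0.0416), and for ValR against LeuR, with 0.78 (SE 0.15, adjusted p = 0.0186). Without ValR 12 the value for ValR against Control was 0.18 (SE 0.17, adjusted p = 0.512).

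Sesn3 (ENSMUSG00000032009, chr9:14275067-14333101, plus strand), a Sestrin known as a FoxO target, was at 282, 192, 193 and 189.7 CPM in the male Control libraries, with Control 1 far above the others. It was at 190.2, 199 and 188 CPM for IleR, at 134, 160.4 and 197 CPM for LeuR, and at 179 to 185 CPM for ValR. All 4 ValR libraries lay below all 4 Control libraries. The log2 fold changes were -0.15 (SE 0.15, adjusted p = 0.536), -0.39 (SE 0.15, adjusted p = 0.11) and -0.24 (SE 0.14, adjusted p = 0.236) for IleR, LeuR and ValR, and none passed. Without LeuR 21, the male restricted library whose hindbrain score was nearest to Control, Sesn3 passed for LeuR at -0.52 (SE 0.15, adjusted p = 0.0367). Without Control 1 the values were 0.01 (SE 0.11, adjusted p = 0.982) for IleR, -0.23 (SE 0.12, adjusted p = 0.283) for LeuR and -0.08 (SE 0.11, adjusted p = 0.692) for ValR. The sign turned on every diet when the hindbrain score was a covariate, without passing, to 0.55 (SE 0.25, adjusted p = 0.704) for IleR, 0.13 (SE 0.21, adjusted p = 0.905) for LeuR and 0.56 (SE 0.28, adjusted p = 0.648) for ValR.

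Castor1 (ENSMUSG00000020424, chr11:4218225-4222409, plus strand), the arginine sensor, was measured from few counts, between 32 and 152 per male library and between 14 and 56 per female library. It was at 2.18, 2.96, 3.50 and 2.35 CPM in male Control libraries, 3.66, 3.92 and 3.79 CPM for IleR, 6.80, 4.46 and 2.82 CPM for LeuR and 4.46, 5.53, 3.30 and 2.99 CPM for ValR. All 3 IleR libraries lay above Control, while the other diets overlapped with it. The log2 fold changes of 0.46 (SE 0.30, adjusted p = 0.337) for IleR, 0.78 (SE 0.30, adjusted p = 0.115) for LeuR and 0.57 (SE 0.28, adjusted p = 0.174) for ValR did not pass. Without LeuR 21 the value for LeuR was 1.06 (SE 0.29, adjusted p = 0.0277). Without LeuR 19, the highest of the 3, it was 0.40 (SE 0.30, adjusted p = 0.519). Adding the hindbrain score as a covariate turned the sign on every diet, to -1.01 (SE 0.52, adjusted p = 0.715) for IleR, -0.42 (SE 0.43, adjusted p = 0.837) for LeuR and -1.11 (SE 0.57, adjusted p = 0.653) for ValR.

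The GATOR1 genes did not pass in any male comparison. Depdc5 (ENSMUSG00000037426, chr5:32863701-32994236, plus strand), the largest subunit, was at 63.7 to 74.4 CPM in Control, 63.3 to 66.3 CPM for IleR, 56.4 to 63.7 CPM for LeuR and 58.7 to 65.9 CPM for ValR. Its log2 fold changes were -0.06 (SE 0.08), -0.14 (SE 0.08) and -0.10 (SE 0.08), and the 95% interval for LeuR ran from -0.31 to 0.04. Nprl2 (ENSMUSG00000010057, chr9:107542226-107545706, plus strand), which carries the catalytic residue of the GAP, was at 24.3 to 27.5 CPM in Control, 20.9 to 22.6 CPM for IleR, 19.8 to 30.1 CPM for LeuR and 22.5 to 24.2 CPM for ValR. Every IleR and ValR library of Nprl2 lay below every Control library, with log2 fold changes of -0.25 (SE 0.12, adjusted p = 0.191) and -0.14 (SE 0.11, adjusted p = 0.422) that did not pass. For Nprl2 the sign turned with the score as a covariate, to 0.38 (SE 0.19, adjusted p = 0.707) for IleR and 0.58 (SE 0.21, adjusted p = 0.629) for ValR.

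Nprl3 (ENSMUSG00000020289, chr11:32225628-32267707, minus strand), the partner of Nprl2, was at 25.5 to 30.7 CPM in Control, 24.4 to 29.0 CPM for IleR, 25.7 to 35.9 CPM for LeuR and 27.1 to 34.1 CPM for ValR, and every diet overlapped with Control. Its log2 fold changes were -0.01 (SE 0.13), 0.15 (SE 0.13) and 0.10 (SE 0.12). A share of 17.7% of the exon bases of Nprl3 also lies in exons of Mpg on the opposite strand, and whether the counting used strand is not given in the sources used here.

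The Rag GTPases differed in how even they were. Rragc (ENSMUSG00000028646, chr4:123917446-123936997, plus strand) was at 70.5 to 72.5 CPM in male Control libraries, 66.7 to 73.5 CPM for IleR, 68.5 to 77.9 CPM for LeuR and 67.7 to 78.2 CPM for ValR. Its log2 fold changes were -0.01 (SE 0.08, adjusted p = 0.967), 0.06 (SE 0.08, adjusted p = 0.688) and 0.05 (SE 0.07, adjusted p = 0.69), and the 95% interval for IleR ran from -0.17 to 0.16. A share of 7.90% of its exon bases lies in exons of 4930535I16Rik on the opposite strand.

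The sequence upstream of Rragc (chr4:123917183-123917432, plus strand, RefSeq, GRCm38.p6) is shown because its window was the only one of the 11 with an E-box, CACGTG, the core of the sites of TFEB and TFE3, which mTORC1 holds in check through Flcn and the RagC and RagD proteins. Capitals mark the E-box and the GC boxes on either strand. Some of the bases shown lie in exons of another gene, Gm12905.
Rragc: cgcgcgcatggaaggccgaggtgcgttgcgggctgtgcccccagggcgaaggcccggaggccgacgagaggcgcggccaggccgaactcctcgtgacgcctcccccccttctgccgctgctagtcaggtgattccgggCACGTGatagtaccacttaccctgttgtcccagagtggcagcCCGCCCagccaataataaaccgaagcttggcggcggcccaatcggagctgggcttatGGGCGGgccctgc
The E-box was in 7.15% of the 32851 windows. The longer CLEAR motif of lysosomal genes, which contains it, was in 0.326% of all windows and in 0 of the 11.

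Rragd (ENSMUSG00000028278, chr4:32983037-33022180, plus strand), a known TFEB target, was at 195, 119, 87.5 and 129 CPM in the male Control libraries 1, 3, 4 and 5, a wide spread within 1 group. It was at 76.4, 82.4 and 103 CPM for IleR, 74.2, 73.5 and 98.3 CPM for LeuR, and 105, 79.9, 115 and 114 CPM for ValR. The means of all 3 restricted diets were below that of Control, and the libraries of each overlapped with Control through Control 4. The log2 fold changes of -0.60 (SE 0.23, adjusted p = 0.0914) for IleR, -0.69 (SE 0.23, adjusted p = 0.0696) for LeuR and -0.36 (SE 0.21, adjusted p = 0.241) for ValR missed the threshold. DESeq2 called Rragd for IleR (adjusted p = 0.0458) and LeuR (adjusted p = 0.0239). Without Control 4, edgeR called it too, at -0.76 (SE 0.20, adjusted p = 0.0199) for IleR and -0.85 (SE 0.20, adjusted p = 0.013) for LeuR. Without LeuR 21 the value for LeuR was -0.82 (SE 0.26, adjusted p = 0.0495). Without Control 1, the highest Control library, the values were -0.36 (SE 0.18, adjusted p = 0.256) for IleR, -0.45 (SE 0.18, adjusted p = 0.187) for LeuR and -0.11 (SE 0.17, adjusted p = 0.715) for ValR. In the fit with the score as a covariate the sign turned, to 0.37 (SE 0.44, adjusted p = 0.868) for IleR, 0.05 (SE 0.37, adjusted p = 0.987) for LeuR and 0.75 (SE 0.48, adjusted p = 0.705) for ValR.

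Flcn (ENSMUSG00000032633, chr11:59791408-59810016, minus strand), the GAP for RagC and RagD and a tumor suppressor, rose in male mice on the ValR diet. Its level was 49.6, 59.1, 53.1 and 54.6 CPM in the male Control libraries 1, 3, 4 and 5, and 72.3, 63.0, 71.5 and 84.1 CPM in ValR 7, 9, 10 and 12. Every ValR library lay above every Control library, by a log2 fold change of 0.43 (SE 0.10, 95% confidence interval 0.20 to 0.65, adjusted p = 0.00914), or 1.34-fold. IleR libraries were at 60.3, 56.9 and 73.4 CPM, with a log2 fold change of 0.23 (SE 0.11, adjusted p = 0.184). LeuR libraries were at 57.1, 61.0 and 55.1 CPM, with a log2 fold change of 0.09 (SE 0.11, adjusted p = 0.633). Both diets overlapped with Control. The difference of ValR from LeuR was 0.33 (SE 0.11, adjusted p = 0.0987), or 0.40 (SE 0.11, adjusted p = 0.0444) without ValR 9. Flcn stayed past the threshold for ValR against Control whichever male library was left out. With the hindbrain score as a covariate its log2 fold change was 0.38 (SE 0.28, adjusted p = 0.735), and 0 of the 22197 genes passed for ValR in that edgeR fit, with 1730.0 at an unadjusted p under 0.05.

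The sequence upstream of Flcn (chr11:59810040-59810289, minus strand, RefSeq, GRCm38.p6) is shown beside that of Sesn2 as the other gene that changed. It has no capitals because the window held none of the 4 motifs searched. Some of the bases shown lie in exons of another gene, Gm16062.
Flcn: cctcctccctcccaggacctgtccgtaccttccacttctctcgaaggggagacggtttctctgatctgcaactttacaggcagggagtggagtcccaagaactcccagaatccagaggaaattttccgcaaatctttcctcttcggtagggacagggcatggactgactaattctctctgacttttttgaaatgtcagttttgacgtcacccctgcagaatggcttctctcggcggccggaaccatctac

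Counted by overlap, 3 of the 10 genes had all IleR males outside the range of Control (Castor1 and Sesn2 above, Nprl2 below), 1 had all LeuR males outside (Sesn1 below) and 3 had all ValR males outside (Flcn above, Nprl2 and Sesn3 below). The shares of all genes tested were 29.3%, 17.7% and 26.4%. With so few genes, these counts too are near the shares of all genes. The 3 comparisons share the 4 Control libraries.

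**Figure D3:**
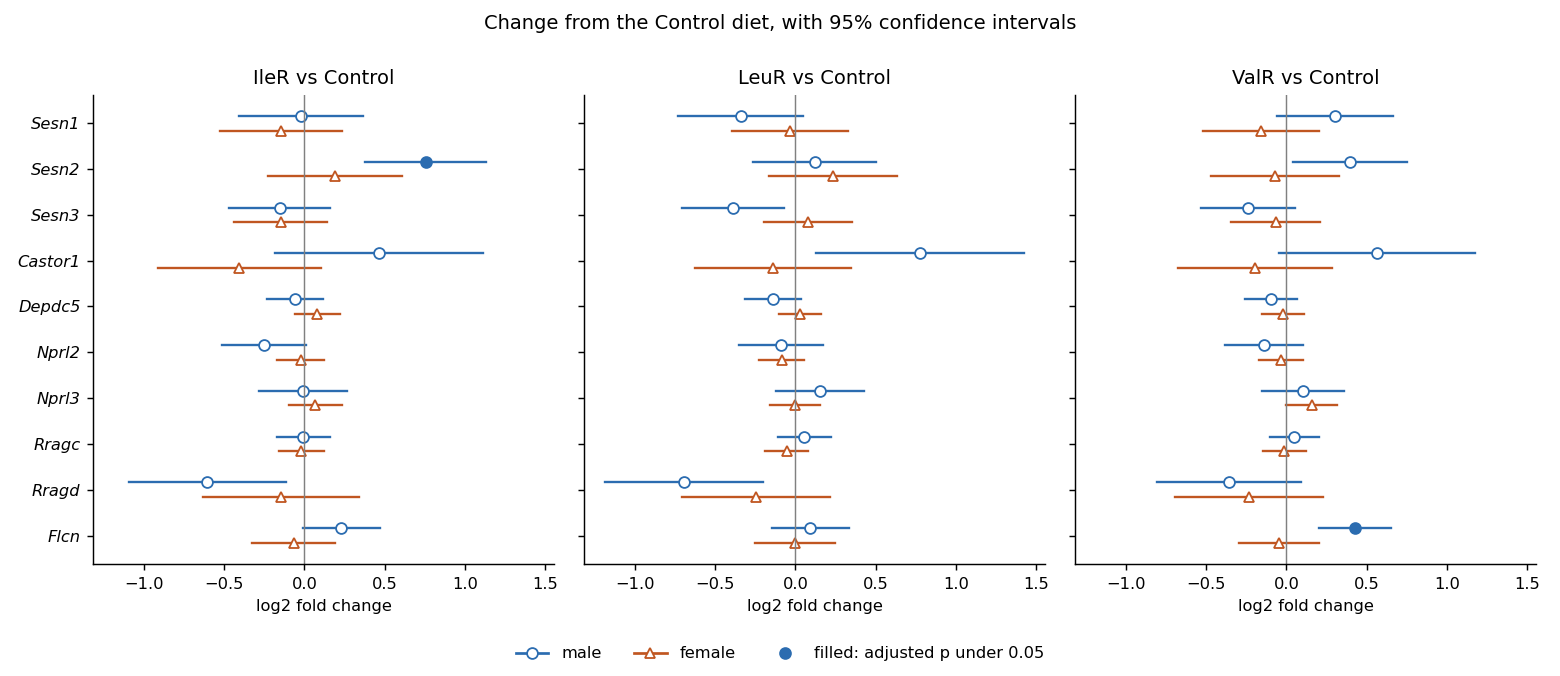
Log2 fold change from Control (horizontal axis) with 95% confidence intervals from edgeR for each gene and diet, in males (circles) and females (triangles), filled where the adjusted p-value was under 0.05. Only Sesn2 for IleR and Flcn for ValR in males are filled, and the female values stay between -0.41 and 0.24.

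Among the restricted diets in males, 0 of the 10 genes differed between ValR and LeuR, where 2.75% of all genes did. For ValR against IleR and for IleR against LeuR, 0.0% of all genes passed. Unadjusted, 2 of the 10 genes (Sesn1 and Flcn) had p under 0.05 for ValR against LeuR, 0 for ValR against IleR and 1 (Sesn2) for IleR against LeuR by edgeR. DESeq2 called Sesn1 (adjusted p = 0.0149) and Flcn (adjusted p = 0.0458) for ValR against LeuR, beside 11.2% of all genes, and 0 of the 10 for ValR against IleR (0.0315% of all genes) and for IleR against LeuR (0.487%).

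In females 0 of the 10 genes passed for any diet, as did 0.0% of the 20344 genes tested against Control by edgeR. An unadjusted p under 0.05 was reached by 2.84% of these genes in the IleR comparison, 4.03% in the LeuR comparison and 3.82% in that of ValR. Of the 10 genes, Nprl3 alone was among them, with a log2 fold change of 0.16 for ValR (SE 0.08, unadjusted p = 0.0497, adjusted p = 1.0, edgeR). DESeq2 also called 0 of the 10 for IleR, LeuR and ValR, beside 0.0393%, 0.00492% and 0.0% of all genes. In the joint test of the 4 diets 0 of the 10 passed, beside 0.0197% of all genes. The female diets overlapped with Control for all 10 genes, and 0.251%, 0.216% and 0.128% of all genes were without overlap for IleR, LeuR and ValR.

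Female Sesn2 ran from 13.0 to 24.2 CPM in Control (median 15.9), 15.6 to 25.1 CPM in IleR (median 18.8), 12.1 to 27.3 CPM in LeuR (median 20.1) and 11.3 to 18.5 CPM in ValR (median 16.5). Its log2 fold changes were 0.19 (SE 0.20) for IleR, 0.24 (SE 0.19) for LeuR and -0.07 (SE 0.19) for ValR. The female interval for IleR, -0.23 to 0.61, overlapped with that of males. Female Flcn ran from 50.1 to 77.0 CPM in Control (median 55.6) and from 47.0 to 67.1 CPM in ValR (median 54.7), with a log2 fold change of -0.05 (SE 0.12, 95% confidence interval -0.29 to 0.20). Female Rragd ran from 93.6 to 222 CPM in Control (median 151), 111 to 185 CPM in IleR (median 124), 86.4 to 188 CPM in LeuR (median 131) and 92.2 to 194 CPM in ValR (median 121). The spread of Rragd within a diet was wider than the differences between the medians.

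The difference between the sexes was tested as a diet by sex interaction. It passed for 0 of the 10 genes, against 0.0979% of the 22465 genes tested on IleR, 0.00445% on LeuR and 4.25% on ValR. Flcn for ValR came nearest, with the male change exceeding the female change by 0.45 (SE 0.17, adjusted p = 0.0973) on the log2 scale. Without Female ValR 36 this was 0.53 (SE 0.17, adjusted p = 0.0453). With the hindbrain score as a covariate it was -0.01 (SE 0.12, adjusted p = 1.0). For Sesn2 and IleR the difference was 0.56 (SE 0.30, adjusted p = 0.3), so the male change in Sesn2 was not shown to differ from the female one. With the score as a covariate it was -0.09 (SE 0.24, edgeR, adjusted p = 0.973). Castor1 had positive male and negative female values on all 3 diets, with differences of 0.86 (SE 0.40, adjusted p = 0.23), 0.94 (SE 0.39, adjusted p = 0.3) and 0.75 (SE 0.37, adjusted p = 0.199). With that covariate the male values of Castor1 were negative in the fit of males alone. The fit of both sexes recomputed the score and gave it a shared slope, so its values do not combine with those of the male fit. There the differences were 0.55 (SE 0.43, adjusted p = 0.841) for IleR, 0.72 (SE 0.40, adjusted p = 0.345) for LeuR and 0.40 (SE 0.42, adjusted p = 0.943) for ValR.

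The female libraries, whose scores ran over a wide range within every diet, were used to see which of the 10 genes went with the score. Log2 CPM was correlated with the score over the 23 female libraries and over the 10 male libraries on restricted diets, 20 relations in all, with two-sided permutation tests. In females, Flcn was higher in libraries with a higher score (r = 0.889, permutation p = 1e-05, adjusted p = 0.0002, Spearman rho = 0.826, permutation p = 2e-05, adjusted p = 0.0002), where 1e-05 is the smallest p that the permutations can give. So were Sesn1 (r = 0.769, permutation p = 2e-05, adjusted p = 0.0002, Spearman rho = 0.547, permutation p = 0.00782, adjusted p = 0.0391) and Sesn2 (r = 0.718, permutation p = 0.0001, adjusted p = 0.000667, Spearman rho = 0.776, permutation p = 7e-05, adjusted p = 0.000467). Rragd was lower in libraries with a higher score (r = -0.711, permutation p = 0.00015, adjusted p = 0.00075, Spearman rho = -0.793, permutation p = 2e-05, adjusted p = 0.0002). Without the libraries farthest from the median score, LeuR 45 and ValR 36, r was 0.857, 0.690, 0.710 and -0.693 for Flcn, Sesn1, Sesn2 and Rragd. The other 6 genes did not pass, with Rragc nearest (r = -0.459, permutation p = 0.0263, adjusted p = 0.105).

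An r at least as large as that of Rragd, of either sign, was found for 22.3% of the 20344 genes tested in females, beside 4 of the 10 that passed. Within female diets of 6 libraries, r for Flcn was 0.908 in Control, 0.906 in LeuR and 0.908 in ValR. For Sesn2 the values were 0.925, 0.645 and 0.717, for Sesn1 0.571, 0.986 and 0.734, and for Rragd -0.858, -0.747 and -0.665. All of these have the sign of the value over all females. Of the 30 relations within diets, 0 passed after adjustment (exact permutation test, smallest adjusted p = 0.104). In the 10 male libraries on restricted diets, 0 of the 10 genes passed, with Flcn at r = 0.491, permutation p = 0.136, adjusted p = 0.223 and Sesn2 at r = 0.568, permutation p = 0.121, adjusted p = 0.223. Without LeuR 20 and LeuR 21, the libraries farthest from the median score, r was 0.227 for Flcn and -0.232 for Sesn2, so the positive value of Sesn2 rests on those libraries. With a score made from the cerebellar markers alone, 2 of the 10 genes passed in these libraries by Pearson's r and 3 by Spearman's rho. Of all 22197 genes, 22.1% had an r and 19.5% a rho of at least the size of the smallest that passed, that of Flcn. This score also differed between the diets, from -3.51 to 1.54 in LeuR, 2.08 to 4.11 in IleR and 2.70 to 4.82 in ValR. The permutations did not keep diets apart, and the part of diet in these relations was not tested. Sesn1 had r = 0.747, permutation p = 0.00469, adjusted p = 0.0188, Spearman rho = 0.842, permutation p = 0.00376, adjusted p = 0.0150, and r = 0.944 without LeuR 20 and LeuR 21. Flcn had r = 0.727, permutation p = 0.0134, adjusted p = 0.0448, Spearman rho = 0.770, permutation p = 0.0123, adjusted p = 0.0351, and r = 0.824 without LeuR 20 and LeuR 21. Sesn2 did not pass, with r = 0.644, permutation p = 0.0593, adjusted p = 0.132, Spearman rho = 0.600, permutation p = 0.0731, adjusted p = 0.146, and r = 0.145 without LeuR 20 and LeuR 21. Rragd passed by rho only, with r = 0.351, permutation p = 0.350, adjusted p = 0.467, Spearman rho = 0.806, permutation p = 0.00705, adjusted p = 0.0235, and r = 0.957 without LeuR 20 and LeuR 21, and its sign is opposite to that in females. With the brainstem and spinal cord markers alone 0 of the 10 genes passed.

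**Figure D4:**
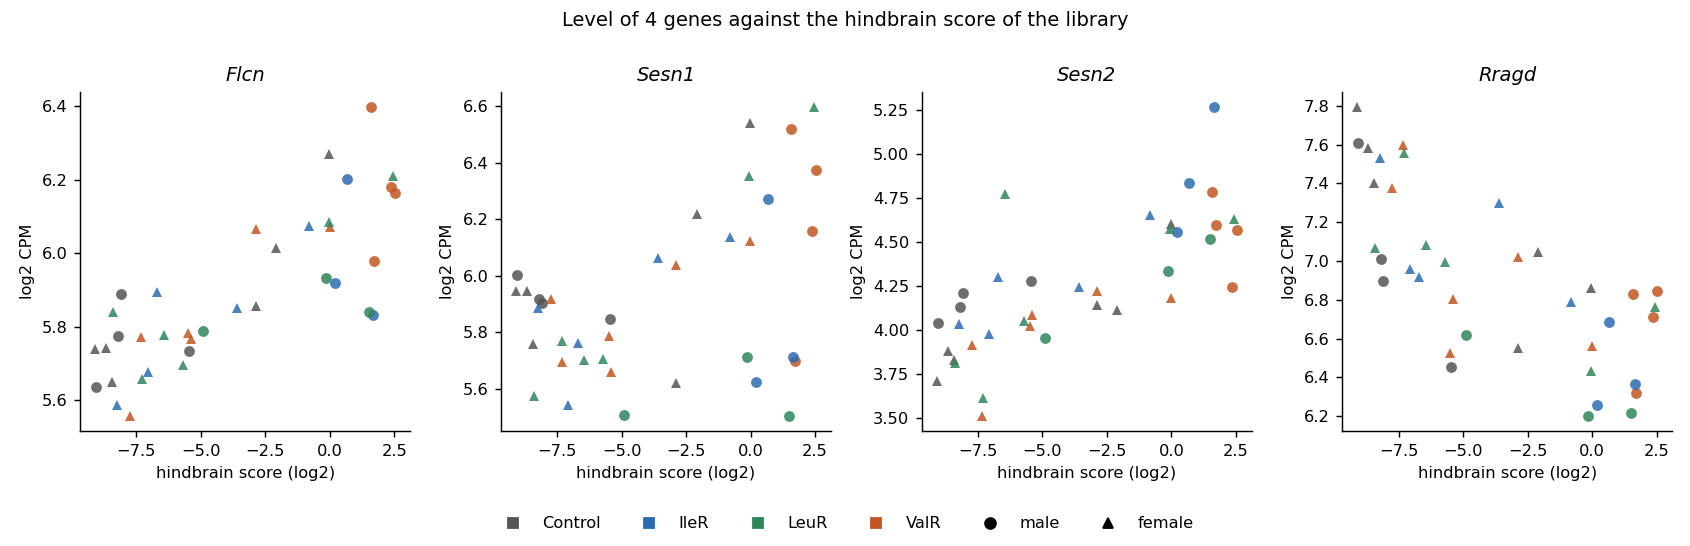
Log2 CPM of Flcn, Sesn1, Sesn2 and Rragd (vertical axes, which do not start at 0) against the hindbrain score of each library (log2 units), colored by diet, with circles for males and triangles for females. Flcn, Sesn1 and Sesn2 are higher and Rragd is lower in female libraries with a higher score, the male Control libraries lie at the low end of the score, and all male ValR and IleR libraries lie above 0. The score used 8 brainstem and spinal cord markers in males and 4 of them in females.

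The other genes of the pathway were read from 9 lists with 49 members, all of which passed the filter. In males 8 of the 49 changed on IleR (7 higher, 1 lower), 2 on LeuR (both higher) and 7 on ValR (5 higher, 2 lower), or 16.3%, 4.08% and 14.3%, against 15.3%, 10.1% and 23.5% of all genes. Single libraries moved these counts. On IleR 3 of the 49 passed without IleR 14 and 5 without IleR 17, and on ValR 4 passed without ValR 12. On LeuR 0 passed without Control 1, Control 3 or LeuR 19, 1 without Control 5, ValR 7 or 10, or IleR 13, 14 or 17, 5 without LeuR 21 and 7 without Control 4. In females 0 of the 49 changed on any diet. The GATOR2 list (5 genes), the TSC and Rheb list (4 genes) and the mTORC1 list (5 genes) had 0 changes in every comparison, with median log2 fold changes against Control in males between -0.18 and 0.07. Of the 7 genes of the Rag and Ragulator list, 1 changed, on LeuR. It was Rragb, which encodes a Rag GTPase on which GATOR1 acts, at 63.7 CPM (SD 17.3, n = 4) in Control and 108 CPM (SD 17.3, n = 3) in LeuR, a log2 fold change of 0.76 (SE 0.17, adjusted p = 0.018), which passed in 11 of 14 fits that each left out 1 male library.

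Itfg2, a subunit of the KICSTOR complex that holds GATOR1 at the lysosome, was the only gene of the lists that rose in males on all 3 diets, while the other 3 KICSTOR genes did not pass on any. It was at 24.4 CPM (SD 2.80, n = 4) in Control, 40.0 CPM (SD 3.76, n = 3) in IleR, 34.7 CPM (SD 6.21, n = 3) in LeuR and 45.3 CPM (SD 7.22, n = 4) in ValR. Its log2 fold changes were 0.72 (SE 0.15, adjusted p = 0.0061), 0.51 (SE 0.15, adjusted p = 0.0447) and 0.90 (SE 0.14, adjusted p = 0.000577). Of the fits that each left out 1 male library, it passed in 14 of 14 for IleR and 14 of 14 for ValR, but in 4 of 14 for LeuR. Of the 5 other amino acid sensors, 1 changed on IleR, 0 on LeuR and 1 on ValR, beside 15.3%, 10.1% and 23.5% of all genes. With so few genes, these counts are near those shares. The gene was Castor2, the paralog of Castor1. It fell on IleR, with a log2 fold change of -0.36 (SE 0.11, adjusted p = 0.036), and on ValR, with -0.32 (SE 0.10, adjusted p = 0.0327), where Castor1 had positive values that did not pass. Castor2 passed in 6 of 14 and 9 of 14 such fits. With the hindbrain score as a covariate its values were -0.04 (SE 0.21, edgeR, adjusted p = 0.976) for IleR and 0.05 (SE 0.23, adjusted p = 0.966) for ValR.

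Fnip2, a partner that Flcn needs for its GAP activity, rose on the same diet as Flcn. It was at 22.9 CPM (SD 1.04, n = 4) in male Control libraries and 37.9 CPM (SD 5.62, n = 4) in ValR, a log2 fold change of 0.73 (SE 0.13, adjusted p = 0.00137). It rose on IleR as well, by 0.56 (SE 0.14, adjusted p = 0.0153), and ValR exceeded LeuR by 0.67 (SE 0.14, adjusted p = 0.0481). For ValR against Control it passed in 14 of 14 such fits, but for ValR against LeuR in 5 of 14. Its paralog Fnip1 did not pass. Of 8 genes of the mTORC1 substrate list, 1 rose on IleR, 0 on LeuR and 2 on ValR, beside 6.63%, 3.81% and 11.1% of all genes. Ulk1, the kinase that starts autophagy, rose on IleR, with a log2 fold change of 0.26 (SE 0.08, adjusted p = 0.0421), and on ValR, with 0.45 (SE 0.07, adjusted p = 0.000863). Tfeb, the transcription factor of lysosomal genes, rose on ValR, with 0.70 (SE 0.21, adjusted p = 0.0267). With the hindbrain score as a covariate the sign of Tfeb turned, to -0.68 (SE 0.40, edgeR, adjusted p = 0.677). Leaving out 1 library at a time, Ulk1 passed in 14 of 14 fits for ValR and in 4 of 14 for IleR, and Tfeb passed in 9 of 14 for ValR.

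Of the 9 genes of the ATF4 target list, 4 rose and 0 fell on IleR, 0 changed on LeuR, and 1 rose and 1 fell on ValR. Of all genes, 6.63% rose on IleR, and 11.1% rose and 12.4% fell on ValR. Without IleR 14, 1 of the 9 (Atf5) rose on IleR. The median log2 fold change of the list on IleR was 0.44, on LeuR -0.13 and on ValR 0.15. Atf5, a transcription factor of the same response, was at 34.0 CPM (SD 2.95, n = 4) in Control and 61.1 CPM (SD 10.5, n = 3) in IleR, a log2 fold change of 0.84 (SE 0.15, adjusted p = 0.00234). Phgdh, the first enzyme of serine synthesis, rose on IleR, with 0.52 (SE 0.12, adjusted p = 0.00934), and passed in 13 of 14 fits that left out 1 library, as Atf5 did in 14 of 14. Slc7a11, the cystine transporter, had a log2 fold change of -0.01 (SE 0.16) on IleR and fell on ValR, with -0.82 (SE 0.15, adjusted p = 0.00183). For Slc7a11 the sexes differed on ValR, with an interaction of -1.34 (SE 0.25, adjusted p = 0.00785), or -0.97 (SE 0.26, adjusted p = 0.37) with the hindbrain score as a covariate. Of the 49 genes 2 passed that interaction, Slc7a11 and, in the other direction, Ddit4, or 4.08%, against 4.25% of all genes. With the hindbrain score as a covariate, 0 of the 49 genes passed for IleR, LeuR or ValR against Control in males (edgeR), and the standard errors of the genes named here were larger than without it. The log2 fold change of Itfg2 was then 0.88 (SE 0.33, adjusted p = 0.704) for IleR, 0.63 (SE 0.25, adjusted p = 0.623) for LeuR and 1.09 (SE 0.36, adjusted p = 0.629) for ValR. Ulk1 for ValR was at 0.44 (SE 0.20, adjusted p = 0.633) and Rragb for LeuR at 0.64 (SE 0.29, adjusted p = 0.657). Smaller than without the covariate were, among others, Atf5 for IleR at 0.40 (SE 0.32, adjusted p = 0.798), Fnip2 for ValR at 0.46 (SE 0.35, adjusted p = 0.741) and Slc7a11 for ValR at -0.29 (SE 0.37, adjusted p = 0.85).

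**Figure D5:**
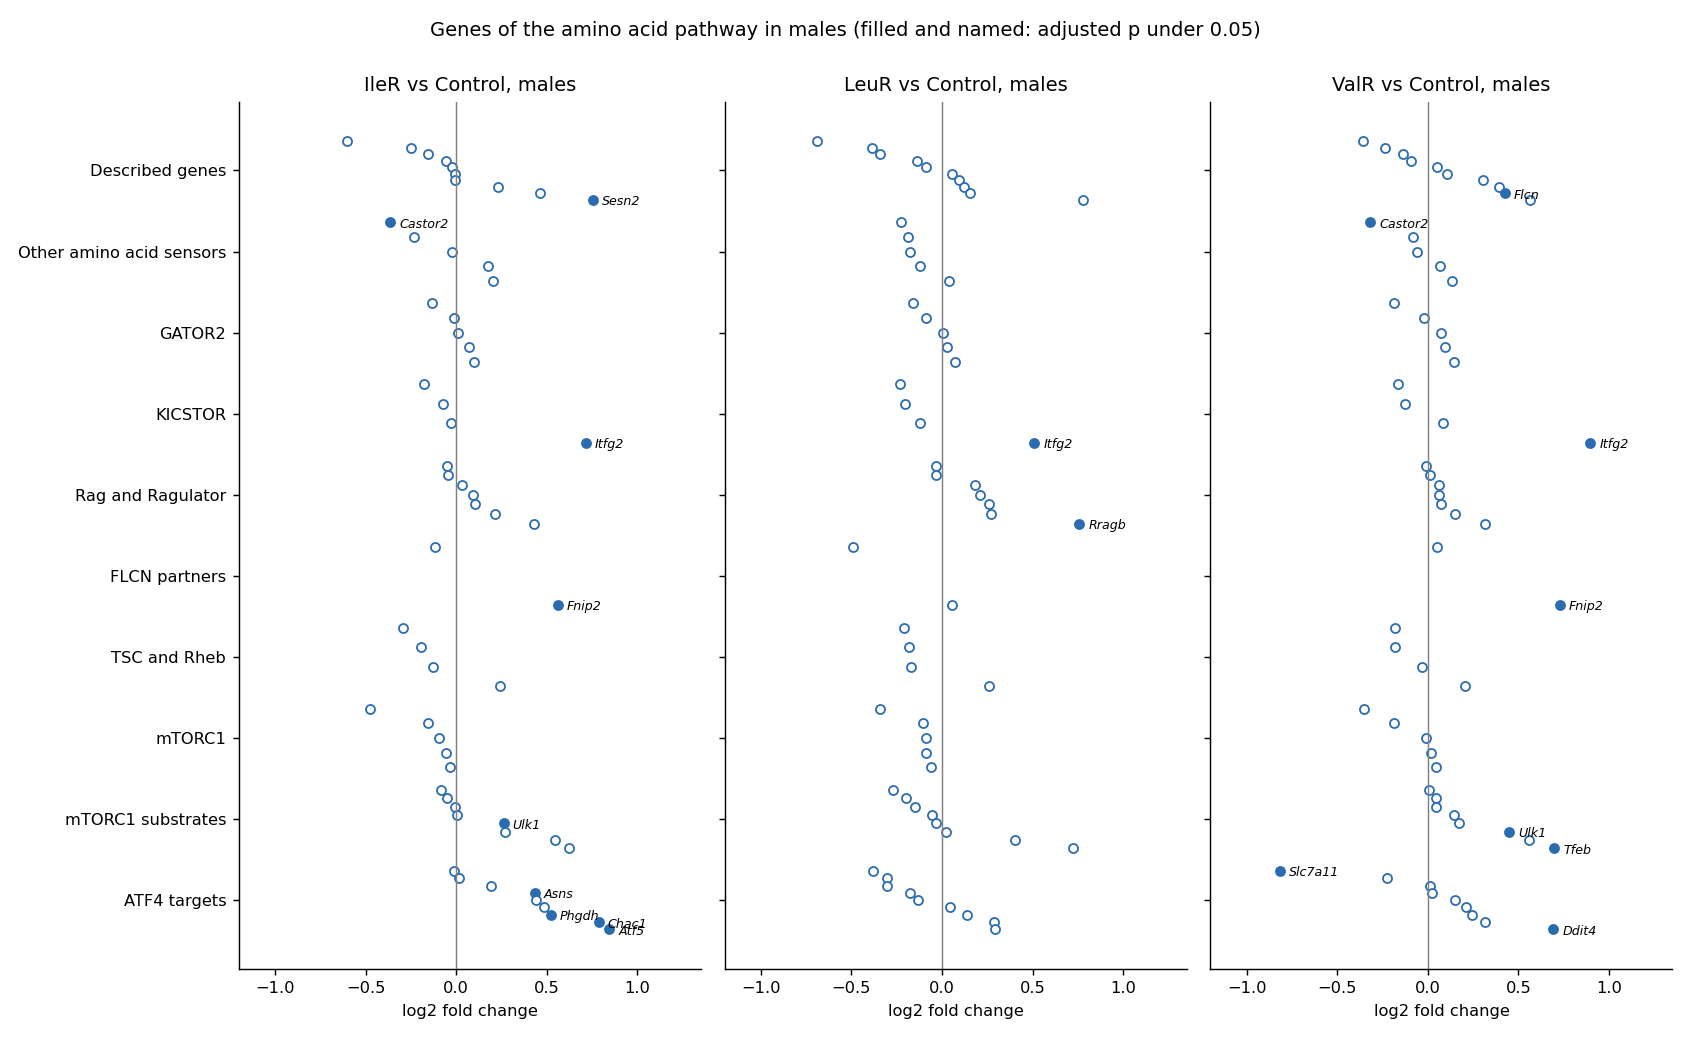
Log2 fold change from Control in males for each gene of the 10 described here (top) and of the 9 pathway lists, 1 point per gene and diet, filled and named where the adjusted p-value (edgeR) was under 0.05. Itfg2 is filled on all 3 diets, the ATF4 targets hold 4 filled points on IleR and 0 on LeuR, and GATOR2, TSC and Rheb, and mTORC1 hold none.

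For each of the 10, the genes whose levels ran most like its own were ranked by the lower of the Pearson correlations of log2 CPM over the 14 male and the 23 female libraries, among 20076 genes tested in both sexes. The libraries share their spread in hindbrain score, and the values are a description. Sesn2 ran most like Shmt2 (0.855), the gene of mitochondrial serine hydroxymethyltransferase, and Slc7a5 (0.821), that of a transporter that carries leucine into cells, followed by Gm42528 (0.795). Flcn ran most like Plcb3 (0.934), Itm2b (0.922) and Tchp (0.919). Sesn1 ran most like Arhgap26 (0.921) and Zfp282 (0.917). Rragd ran most like the potassium channel gene Kcnh1 (0.891), Arel1 (0.878) and Rnf166 (0.868).

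The other 6 genes had neighbours with lower values. Nprl2 ran most like Lrrc4b (0.779), Gba2 (0.733) and Apc2 (0.717), and Nprl3 most like Cd36 (0.733), Slc39a6 (0.694) and Gpc3 (0.676). For Sesn3 they were C2cd5 (0.731), Lrrtm3 (0.730) and Sez6 (0.721), and for Rragc Skp1a (0.708), Necap1 (0.699) and Rab2a (0.692). For Castor1 they were Eci2 (0.659), Cc2d1b (0.619) and Rilp (0.608), and for Depdc5 Msrb3 (0.636), Col5a1 (0.628) and Zfp367 (0.621). No gene of the 10 was among the nearest 3 of another.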

How the data were processed

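RNA-seq of brain from 37 libraries of 3xTg mice was analysed (14 male, 23 female). The values the authors deposited are expected counts, listed by Ensembl identifier on mouse build GRCm38 and not normalized. An expected count shares reads that match several genes, and in each library 3.69% to 4.93% of them were not whole numbers. The name of the deposited tables gives RSEM as the counter, while its version, the aligner and whether the counting used strand are not given in the sources used here, and the labels and methods differ on whether polyA or total RNA was sequenced. The submitters' processing notes name R 3.4.3, edgeR and limma. The authors also deposited tables of log2 fold changes with unadjusted and adjusted p-values for each diet, which were not used.

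After rounding, tests were run with DESeq2 1.42.0, limma 3.58.1 and edgeR 4.0.16 under R 4.3.3, and the rest in Python with numpy 2.4.6, scipy 1.17.1 and matplotlib 3.10.9. In each sex a gene was tested if all libraries of some diet group had 1 count or more of it. The 4 diets of a sex were fitted together with TMM normalization and the edgeR quasi-likelihood test, and the diet by sex interaction in all 37 libraries. P-values were adjusted by Benjamini-Hochberg with a threshold of 0.05, and log2 CPM used a prior count of 2. Median depth was 16001013 counts in males and 15979541 in females. The fits were tested on simulated data. Alternatives were DESeq2, DESeq2 size factors, limma voom, other filters, the hindbrain score as a covariate, fits of only the groups compared, scores from 1 list, a prior count of 0.5, and leaving out each library. Their use on the pathway lists was added after seeing the data.

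Coordinates and exon lengths are from GENCODE M21 (GRCm38), and upstream sequences from RefSeq (GRCm38.p6). The motifs searched on both strands were CACGTG, CLEAR, TGATGCAA and GGGCGG. The gene set, the pathway lists and the marker lists were chosen with earlier results of these data known. Named genes were the 10, at most 3 genes per pathway list with the smallest p among those past the threshold against Control, and the 3 genes most like each of the 10. Results for some of the genes so named are not reported here. The plot of the pathway lists also names the other genes past the threshold.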

Additional observations from a re-analysis of the deposited data

Results flagged for a closer look

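In 60 groups of 4 to 6 libraries (the 10 genes in each group of that size), 4 held a library that stood apart from the rest of its diet and sex, where chance gives about 1 in 20. Sesn3 was at 282 CPM in male Control 1, with a gap to the next library of 0.963 of the range of the group (critical value 0.829 for 4 libraries). Depdc5 was at 74.4 CPM in male Control 3 (gap 0.871 of the range, critical value 0.829). Sesn3 was at 254 CPM in Female ValR 33 (gap 0.684 of the range, critical value 0.625 for 6 libraries). Rragc was at 84.5 CPM in Female LeuR 47 (gap 0.676 of the range, critical value 0.625). Slc7a11 differed between the sexes for ValR, with an interaction of -1.34 on the log2 scale (edgeR, male change minus female change, adjusted p = 0.00785), and with the hindbrain score as a covariate this was -0.97 with an adjusted p of 0.370.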

How the results depend on the processing

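Of 4350 values of the 10 genes under alternatives, 4332 kept their side of the threshold, 3 lost it, 15 gained it and 0 called values changed direction, and 208 values past the threshold in neither fit changed sign. With the hindbrain score as a covariate, 0 of the 10 genes passed for IleR, for ValR and for any difference among the male diets, and the calls of Sesn2 for IleR (0.01) and Flcn for ValR (0.38, with a larger standard error) were lost. In that fit Sesn3, Castor1, Nprl2 and Rragd turned sign on each male diet without passing. DESeq2 called 2 for IleR, 1 for LeuR, 2 for ValR against LeuR and 4 for any difference among the male diets. A fit of only ValR and Control called 2, with Sesn2 added. With the cerebellar list alone in the score, 2 of the 10 genes, Sesn1 and Flcn, passed in the male libraries on restricted diets, and Rragd passed by Spearman's rho only (0.806, permutation test, adjusted p = 0.0235), where 22.1% of all genes had an r and 19.5% a rho at least as large as those of Flcn. Over fits that each left out 1 library, 0 to 2 genes passed for IleR, 0 to 3 for LeuR, 1 to 2 for ValR, 0 to 2 for ValR against LeuR, 0 to 3 for any difference among the male diets and 0 to 1 for the ValR interaction. In the other comparisons 0 passed whichever library was left out. For the 49 pathway genes, chosen for this after seeing the data, 0 passed on any male diet with the score as a covariate, where Castor2 (0.052) and Tfeb (-0.68) for ValR turned direction without passing, while Itfg2 (0.88 for IleR, 0.63 for LeuR, 1.09 for ValR) and Ulk1 (0.44 for ValR) kept values about as large or larger with larger standard errors. On LeuR, 5 passed by DESeq2, 1 by limma voom and 0 in a fit of only LeuR and Control. Leaving out 1 library gave 3 (without IleR 14) to 10 for IleR, 0 to 7 for LeuR and 4 to 9 for ValR. The adjusted p over the alternatives ran from 0.00136 to 0.996 for Sesn2 and IleR and from 0.00128 to 0.735 for Flcn and ValR. The cause was not tested. No paired analysis was possible because each library has a number of its own, shared with no library of another diet. Castor1 had the fewest counts of the 10, with 14 to 152 per library, and the part of depth in its spread was not tested.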

Other observations

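Among the 10 genes, Sesn1 and Flcn ran alike over libraries (r = 0.724 over 14 male and 0.776 over 23 female libraries), as did Sesn3 and Rragd (r = 0.752 and 0.705). These are descriptions over libraries that share their spread in hindbrain score, and no test was run.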
